A study of Homo sapiens with 18 samples.

Results

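SRF-PDGFRB is a gene fusion that joins SRF, a DNA-binding transcription factor, to PDGFRB, a receptor tyrosine kinase for platelet-derived growth factor. Its RNA profile in cultured cells was compared here with that of cells carrying pMSCV, a retroviral vector taken as the empty control. All genes were examined. The comparison rests on 6 of the 18 libraries of the series, 3 labelled SRF-PDGFRB and 3 labelled pMSCV. Each library was made from MSC-hTERT, a human mesenchymal stem cell line immortalized with telomerase and grown with serum, FGF-2, ascorbic acid and heparin. The other 12 libraries, 3 each of cells labelled SRF, SRF-FOXO1, SRF-ICA1L and SRF-RELA, had the same background and culture. They entered the model and served to ask which differences set SRF-PDGFRB apart. The labels name 1 cell line and state neither the breakpoint of the fusion, the promoter that drives it, nor whether the 3 libraries of a group came from separate cultures. P-values therefore measure the spread between these libraries, which may be technical.

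SRF binds short A/T-rich DNA elements called CArG boxes and, with cofactors of the myocardin family or the ternary complex factors, drives genes of the cytoskeleton, of muscle and of the immediate early response. PDGF receptors signal through several arms, among them ERK and the STAT proteins. STATs are also the relay of cytokine receptors, which activate them through JAK kinases: STAT5 induces CISH and SOCS genes, whose products damp the same receptors, and the interferon gamma receptor also works through JAK kinases. In mesenchymal stem cells interferon gamma is known to induce chemokines of the CXCL9 family, IDO1, and, through the transactivator CIITA, the MHC class II genes, which present peptides to helper T cells.

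The 6 libraries held between 19362319 and 29132937 counts, within the range of the series. The defining markers of mesenchymal stem cells were detected, 8 of 8, with a summed level of 9564 to 11573 counts per 1000000 counts of the library (CPM) in pMSCV and 10205 to 10966 CPM in SRF-PDGFRB. The summed level of 12 immune cell markers was 2.62 to 3.15 CPM in pMSCV and 2.58 to 3.09 CPM in SRF-PDGFRB, and CD3E, CD8A and TYROBP were at 0 in both groups. Endothelial markers (6) summed to 73.7 to 94.1 CPM in pMSCV and 78.3 to 141 CPM in SRF-PDGFRB, and epithelial markers (7) to 56.3 to 96.4 CPM and 56.7 to 111 CPM, with KRT5 at 0 in both. The share of counts from mitochondrial genes was 5.05% to 5.28% in pMSCV and 4.52% to 4.71% in SRF-PDGFRB, without overlap. Its part in the results was not tested.

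Few genes were called. Of 18544 genes tested, 6 rose in SRF-PDGFRB against pMSCV (0.0324%): APOL4, SRF, CISH, HLA-DRA, CXCL9 and XIRP1. None was called lower, and DESeq2 called 19 higher and 1 lower. At an unadjusted p under 0.05 edgeR found 188 genes lower and 202 higher, 390 of the 18544. That is fewer than would pass a threshold of 0.05 if no gene differed. Calling used edgeR's quasi-likelihood test, Benjamini-Hochberg adjustment over all tested genes and a threshold of 0.05. Libraries that carry the same replicate number in the labels deviated together from their group means, so each result is given also with the number as a block. With this block, 33 genes were called (0.178%), 24 higher (0.129%) and 9 lower (0.0485%), and all 6 of the genes above were among them. At an unadjusted p under 0.05 edgeR then found 950 genes, close to the share that would pass if no gene differed. The 390 and 950 are the background for such edgeR counts in the lists below. DESeq2 called 20 (0.108%) without the block and 106 (0.572%) with it. The common biological coefficient of variation was 0.2245 without the block and 0.1498 with it. The median log2 fold change over all tested genes was 0.00 in both fits.

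Without pMSCV replicate 1, 2 or 3 the test called 2 genes each time, APOL4 and SRF, and without SRF-PDGFRB replicate 1, 2 or 3 it called 3, 8 and 2. APOL4 and SRF were called in 6 of these 6 fits, and CISH, HLA-DRA, CXCL9 and XIRP1 in 1 each. With the block, leaving out the libraries numbered 1, 2 or 3 in every group left 5, 39 and 0 calls. In the last of these edgeR found 620 of 18688 tested genes at an unadjusted p under 0.05, fewer than would pass if no gene differed. The 33 genes kept their direction in each of those 3 fits. They were picked by the blocked fit to these same libraries, so this says little about how firm the calls are.

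**Figure D1:**
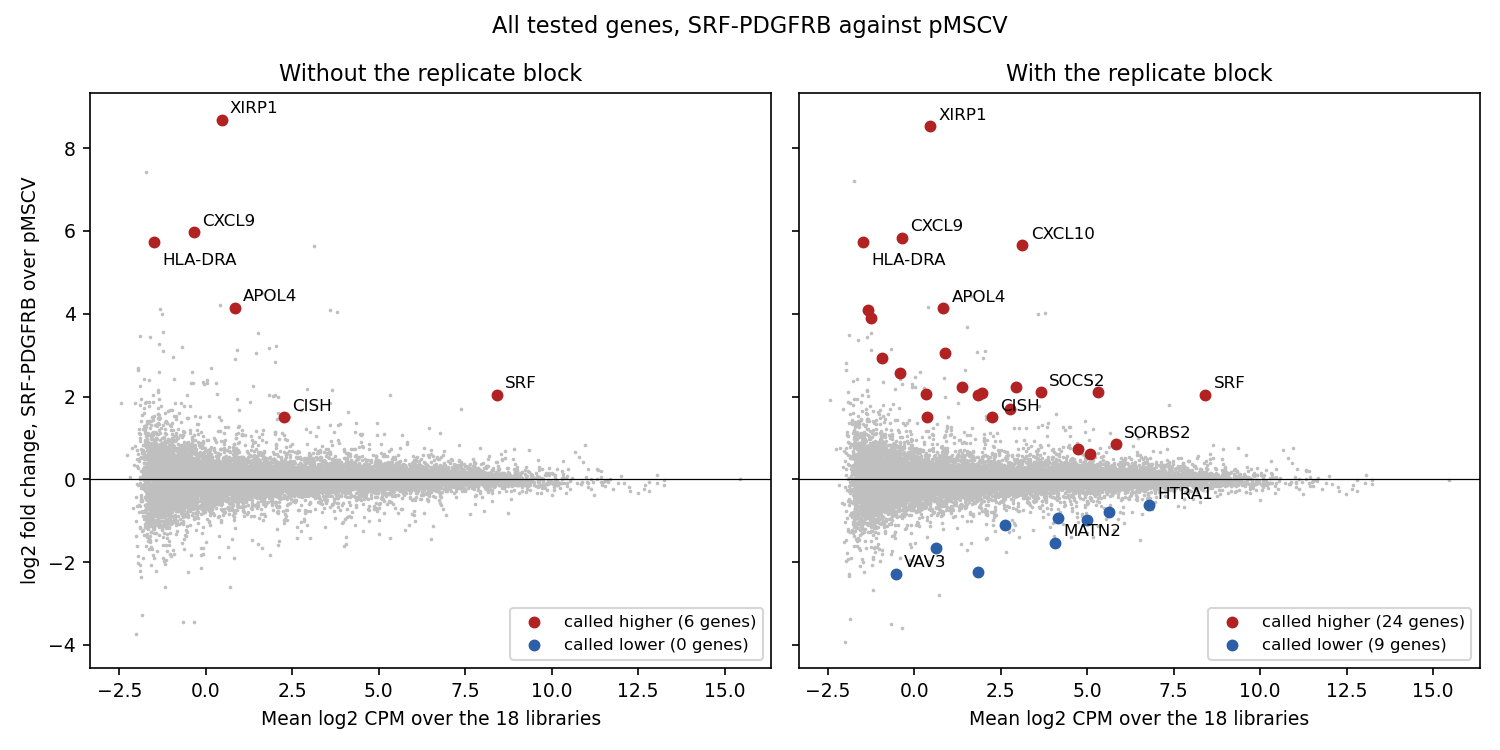
Log2 fold change of SRF-PDGFRB over pMSCV for the 18544 tested genes (vertical axis) against the mean log2 CPM over the 18 libraries (horizontal axis), without the replicate block (left) and with it (right). Red points are genes called higher (6 and 24) and blue points genes called lower (0 and 9); without the block the 6 red points lie between 1.51 and 8.69.

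Reads of the construct and of the cell's own genes are counted together, so SRF and PDGFRB give a check of the labels. SRF (chr6:43171299-43181507, GRCh38) was at 61.1, 64.4 and 57.3 CPM in the pMSCV libraries and at 337, 159.6 and 261 CPM in the SRF-PDGFRB libraries. Every SRF-PDGFRB library lay above every pMSCV library, with replicate 2 the lowest of the 3. The mean was 4.14-fold higher, a log2 fold change of 2.04 ± 0.23 (SE, n = 3 per group; edgeR adjusted p = 0.00177, and 0.00154 with the block). With only the 6 libraries of the 2 groups in the model SRF missed the threshold (edgeR adjusted p = 0.306), as it did in the blocked fit without the libraries numbered 1 or 3 (0.0583 and 0.209). PDGFRB (chr5:150113837-150155872), which MSC-hTERT already expresses, was at 502, 392 and 381 CPM in pMSCV and 929.7, 526 and 673 CPM in SRF-PDGFRB. These groups did not overlap either, and PDGFRB was higher in 3 of 3 pairs, but its log2 fold change of 0.73 ± 0.23 did not pass the test (edgeR adjusted p = 1, and 0.218 with the block). DESeq2 with the block did call it (adjusted p = 0.0352).

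Among the other PDGF genes, PDGFRA, the alpha receptor, was at 95.1, 65.8 and 107 CPM in pMSCV and 61.9, 40.5 and 30.8 CPM in SRF-PDGFRB. The pMSCV libraries lay above all SRF-PDGFRB libraries, as for 4.8% of tested genes, with a log2 fold change of -1.0 ± 0.31 (edgeR adjusted p = 1, and 0.171 with the block). DESeq2 with the block called it. PDGFB, the ligand that binds the beta receptor, had 0, 0 and 1 counts in pMSCV and 0, 8 and 20 counts in SRF-PDGFRB, a ratio of 29.2-fold (95% exact interval 4.82 to 1192, which covers counting error only). SRF-PDGFRB replicate 1 had no count, so the groups overlap, and PDGFB was not called (edgeR adjusted p = 1, and 0.376 with the block). Of 6 tested PDGF ligands and receptors none was called in either edgeR fit (3 at an unadjusted p under 0.05, 2 of them higher), and DESeq2 called none without the block and PDGFRA and PDGFRB with it. The ligands PDGFA, PDGFC and PDGFD had log2 fold changes of 0.34, -0.03 and 0.64.

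Of the feedback genes of cytokine receptors 3 were called. CISH, whose product binds activated cytokine receptors and is a standard readout of STAT5, was called in both fits, and SOCS2 and SOCS1, inhibitors of growth hormone and interferon signalling, were called with the block. Of 15 tested STAT5 and SOCS feedback genes, 1 was called without the block and 3 with it, all higher, where 0.0324% and 0.178% of all tested genes were called, and the list's median log2 fold change was -0.02 against 0.00 for all genes. The promoters of CISH and SOCS1 are shown because both genes were called and their windows hold different elements, of the STAT type and of the interferon type. The windows are the 250 bases before the start site in RefSeq (GRCh38.p14; CISH chr3:50611775-50612024, minus strand; SOCS1 chr16:11256205-11256454, minus strand), with TTCNNNGAA, the STAT element, in capitals in CISH and GAAANNGAAA, the interferon-response type element, in capitals in SOCS1:
CISH: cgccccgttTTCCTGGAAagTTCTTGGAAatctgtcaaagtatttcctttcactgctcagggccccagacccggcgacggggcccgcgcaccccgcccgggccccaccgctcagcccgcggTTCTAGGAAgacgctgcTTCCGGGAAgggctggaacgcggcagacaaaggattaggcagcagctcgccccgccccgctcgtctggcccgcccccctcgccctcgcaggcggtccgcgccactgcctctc
SOCS1: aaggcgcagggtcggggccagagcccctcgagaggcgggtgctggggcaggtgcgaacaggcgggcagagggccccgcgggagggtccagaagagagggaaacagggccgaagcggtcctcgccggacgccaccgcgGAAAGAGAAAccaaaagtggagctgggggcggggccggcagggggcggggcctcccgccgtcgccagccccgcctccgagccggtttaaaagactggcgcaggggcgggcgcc
Both strands were searched, and no match of one element overlapped a match of the other. CISH holds 4 TTCNNNGAA matches, beginning 241, 230, 129 and 112 bases before the start. Of 35116 promoters of this length, 6.57% hold at least 1 match and 5 (0.0142%) hold 4 or more. SOCS1 holds 1 GAAANNGAAA match, 113 bases before the start, as do 3.02% of promoters. A match is a description of these letters and not a binding site. SOCS2 is not in the promoter table.

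CISH (chr3:50606490-50611831) was at 3.04, 3.83 and 3.39 CPM in pMSCV and 7.97, 11.2 and 10.1 CPM in SRF-PDGFRB. The lowest SRF-PDGFRB library was above the highest pMSCV library, with no overlap. The mean rose 2.85-fold, with a log2 fold change of 1.51 ± 0.23 (SE, n = 3 per group; edgeR adjusted p = 0.0379, and 0.00147 with the block). SOCS2 (chr12:93569814-93583487) was at 3.82, 10.9 and 11.4 CPM in pMSCV and 17.7, 36.5 and 63.3 CPM in SRF-PDGFRB. In both groups replicate 1 was the lowest and replicate 3 the highest, and the groups did not overlap. The log2 fold change was 2.11 ± 0.25 with the block (edgeR adjusted p = 0.00176), and the call was not made without it (adjusted p = 1). SOCS1 (chr16:11254405-11256200) was at 2.94, 3.40 and 7.45 CPM and 9.12, 13.9 and 21.0 CPM in the same order of groups. Here too replicate 3 was the highest of each group and the groups did not overlap. Its log2 fold change was 1.70 ± 0.22 with the block (edgeR adjusted p = 0.00280, and 0.388 without it).

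SOCS2-AS1, an antisense gene that overlaps the 5′ end of SOCS2 (chr12:93542463-93571768), was at 0.354, 0.903 and 1.45 CPM in pMSCV and 1.36, 3.78 and 6.46 CPM in SRF-PDGFRB, and was called with the block (log2 fold change 2.06 ± 0.28, edgeR adjusted p = 0.00392). The use of strand in counting is not given in the sources used here, so reads of this pair cannot be told apart. The other 12 tested members of the list were not called. SOCS3, the feedback gene induced by STAT3, was at 61.6, 17.5 and 53.0 CPM in pMSCV and 44.6, 26.4 and 35.4 CPM in SRF-PDGFRB, with overlap between the groups and a log2 fold change of -0.32 ± 0.48 (edgeR adjusted p = 1). CCND1 and PIM1, a cyclin and a kinase that STAT5 can induce, had log2 fold changes of 0.40 and 0.16, MYC of -0.07 and BCL6, a repressed STAT5 target, of -0.48.

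The signal proteins themselves were not called. Of 11 JAK and STAT genes none was called by edgeR or DESeq2 with or without the block, none had an unadjusted p under 0.05, and the log2 fold changes ran from -0.10 to 0.41. STAT5A was at 19.0, 15.3 and 17.7 CPM in pMSCV and 16.2, 15.8 and 16.5 CPM in SRF-PDGFRB, and STAT5B had a log2 fold change of 0.06 ± 0.13. Of 10 tested interferon receptors and IRF factors none was called by either tool in either fit, and none had an unadjusted p under 0.05 in edgeR without the block. IRF1, the transcription factor that relays interferon gamma to CIITA and the guanylate-binding proteins, was at 36.6, 31.0 and 31.2 CPM in pMSCV and 44.0, 36.3 and 48.8 CPM in SRF-PDGFRB, higher in 3 of 3 pairs with a log2 fold change of 0.38 ± 0.19 (edgeR adjusted p = 1, and 0.512 with the block). IFNG, the gene of interferon gamma, had no count in any of the 18 libraries. IFNB1, chosen after its values were seen, had 1 count in each SRF-PDGFRB library, none in pMSCV and at most 3 in any library of the other groups.

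Genes induced by interferon gamma were higher as a list and held 4 of the calls. Of 22 tested, 2 were called without the block (CXCL9 and APOL4) and 4 with it (CXCL10 and IDO1 in addition), all higher. Of all tested genes 0.0324% and 0.178% were called in these fits. CXCL9 passed the count filter only through its SRF-PDGFRB libraries. The median log2 fold change of the 22 was 0.56, against 0.00 for all genes. All 22 had values above 0, 18 were higher in 3 of 3 pairs with the same number (16.3% of all tested genes were), and for 12 the groups did not overlap (5.12% of all tested genes did so in the higher direction). The summed level of the list was 628 to 842 CPM in pMSCV and 1007 to 1103 CPM in SRF-PDGFRB, without overlap. It was 663 to 832 CPM in SRF, 756 to 852 CPM in SRF-FOXO1 and 804 to 932 CPM in SRF-ICA1L. In SRF-RELA it was 738 to 1124 CPM, and the highest SRF-RELA library lay above every SRF-PDGFRB library. In bulk RNA, more cells that express a gene and more RNA per cell cannot be told apart. The promoters of CXCL9, CXCL10 and CEACAM1, called genes with a GAAANNGAAA match (capitals), are shown to set the chemokines beside a called gene from outside the list. The windows are again the 250 bases before the start site (RefSeq, GRCh38.p14; CXCL9 chr4:76007510-76007759, minus strand; CXCL10 chr4:76023498-76023747, minus strand; CEACAM1 chr19:42528482-42528731, minus strand):
CXCL9: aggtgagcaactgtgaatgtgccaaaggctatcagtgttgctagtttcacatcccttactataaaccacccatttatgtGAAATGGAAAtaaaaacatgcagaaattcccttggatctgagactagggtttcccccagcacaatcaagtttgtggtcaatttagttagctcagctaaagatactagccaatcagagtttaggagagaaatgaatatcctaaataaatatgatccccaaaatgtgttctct
CXCL10: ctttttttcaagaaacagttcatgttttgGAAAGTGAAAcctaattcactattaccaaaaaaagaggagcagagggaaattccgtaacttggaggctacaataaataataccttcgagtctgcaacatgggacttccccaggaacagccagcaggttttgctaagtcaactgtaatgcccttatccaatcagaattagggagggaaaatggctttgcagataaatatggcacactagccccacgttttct
CEACAM1: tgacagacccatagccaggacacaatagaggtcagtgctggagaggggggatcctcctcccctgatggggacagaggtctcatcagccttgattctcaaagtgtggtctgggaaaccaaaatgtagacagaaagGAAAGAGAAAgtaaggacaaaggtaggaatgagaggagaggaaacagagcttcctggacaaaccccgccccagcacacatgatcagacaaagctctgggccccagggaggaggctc
The matches begin 171, 221 and 116 bases before the start. Of the 33 called genes 20 are in the promoter table. Of these, 4 hold GAAANNGAAA (SOCS1 is the fourth) and 3 hold TTCNNNGAA (CISH, CMKLR1 and SORBS2). A gene was counted if the window of any of its start sites held a match, and SORBS2 has several start sites. The shares of promoters given above are per window and not per gene, so they are no background for these counts. Whether the counts exceed chance was not tested.

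CXCL9 (chr4:76001275-76007488), a chemokine that attracts T cells through CXCR3, had 1, 0 and 4 counts in the pMSCV libraries and was at 8.11, 1.24 and 3.10 CPM in the SRF-PDGFRB libraries. It was all but silent in pMSCV and present in each SRF-PDGFRB library, most in replicate 1. The pooled counts differed by 68.5-fold (95% exact interval 29.1 to 212, which covers counting error only), and the fitted log2 fold change was 5.97 ± 0.92 (edgeR adjusted p = 0.0479, and 0.00365 with the block). CXCL10 (chr4:76021117-76023497), its neighbour on chromosome 4 with the same receptor, was at 0.637, 0.0430 and 1.87 CPM in pMSCV and 59.9, 29.9 and 40.9 CPM in SRF-PDGFRB. The groups were far apart, and pMSCV replicate 2 was the lowest library. The mean was 51.2-fold higher, with a log2 fold change of 5.66 ± 0.89 with the block (edgeR adjusted p = 0.0225, and 0.0733 without it). CXCL11 (chr4:76033682-76041415), the third ligand of that receptor, was at 1.56, 0.301 and 2.98 CPM and 46.7, 10.4 and 24.1 CPM. It too was without overlap, but was called in neither edgeR fit (log2 fold change 4.04 ± 0.84, adjusted p = 0.368, and 0.134 with the block), while DESeq2 called it with and without the block.

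APOL4 (chr22:36189124-36204840), a member of the apolipoprotein L family, was the gene with the lowest p. It was at 0.319, 0.602 and 0.416 CPM in pMSCV and 6.30, 7.14 and 10.4 CPM in SRF-PDGFRB, and the spread within each group was small beside the gap between them. The mean rose 17.8-fold, with a log2 fold change of 4.15 ± 0.41 (SE, n = 3 per group; edgeR adjusted p = 0.000501, and 5.75e-05 with the block). The 4 other APOL genes of the list, which resemble it and lie near it on chromosome 22, had log2 fold changes of 0.60 (APOL1), 0.42 (APOL2), 0.16 (APOL3) and 0.34 (APOL6), none called by edgeR; reads shared between such copies could have been split. IDO1 (chr8:39902275-39928444), which degrades tryptophan and restrains T cells, was at 5.06, 1.16 and 3.98 CPM in pMSCV and 21.4, 5.56 and 14.9 CPM in SRF-PDGFRB. Replicate 2 was the lowest library of each group, and the groups were separated by a narrow margin. IDO1 was called with the block (log2 fold change 2.09 ± 0.35, edgeR adjusted p = 0.0190) and not without it (adjusted p = 1).

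The remaining interferon gamma genes differed by less and were not called by edgeR. GBP5 and GBP1, guanylate-binding proteins of the response to intracellular microbes, differed in level. GBP5 was at 17.3, 14.4 and 43.8 CPM in pMSCV and 79.7, 55.0 and 58.4 CPM in SRF-PDGFRB, and GBP1 at 78.9, 74.2 and 87.7 CPM and 134, 119.7 and 109.9 CPM. Neither overlapped between groups, and neither was called (log2 fold change 1.36 ± 0.38 and 0.59 ± 0.15, edgeR adjusted p = 1 and 0.805). CD274, the immune checkpoint ligand PD-L1, was at 7.12, 13.7 and 9.52 CPM in pMSCV and 17.6, 40.6 and 16.3 CPM in SRF-PDGFRB. The groups did not overlap, and its log2 fold change of 1.27 ± 0.26 with the block did not pass the test (edgeR adjusted p = 0.0692); DESeq2 with the block called it. WARS1, NLRC5, UBE2L6 and ICAM1 had log2 fold changes of 0.48, 0.35, 0.01 and 0.19. Genes induced by type I interferon gave a weaker picture: of 30 tested, edgeR called none in either fit (without the block 3 at an unadjusted p under 0.05, all higher), DESeq2 called none without the block and RSAD2 with it, and the groups did not overlap for 2 (6.67%, against 5.12% of all tested genes in the higher direction). Their median log2 fold change was 0.33 and 29 of 30 were above 0. RSAD2, an antiviral enzyme, was at 0.389, 0.258 and 1.59 CPM in pMSCV and 6.55, 1.48 and 3.36 CPM in SRF-PDGFRB, MX1 at 5.95, 2.24 and 24.9 CPM and 34.6, 16.5 and 21.9 CPM, and IFIT1 at 18.1, 10.5 and 72.9 CPM and 48.2, 32.0 and 33.2 CPM. In each of the 3 genes pMSCV replicate 3 was the highest pMSCV library and lay above at least 1 SRF-PDGFRB library.

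**Figure D2:**
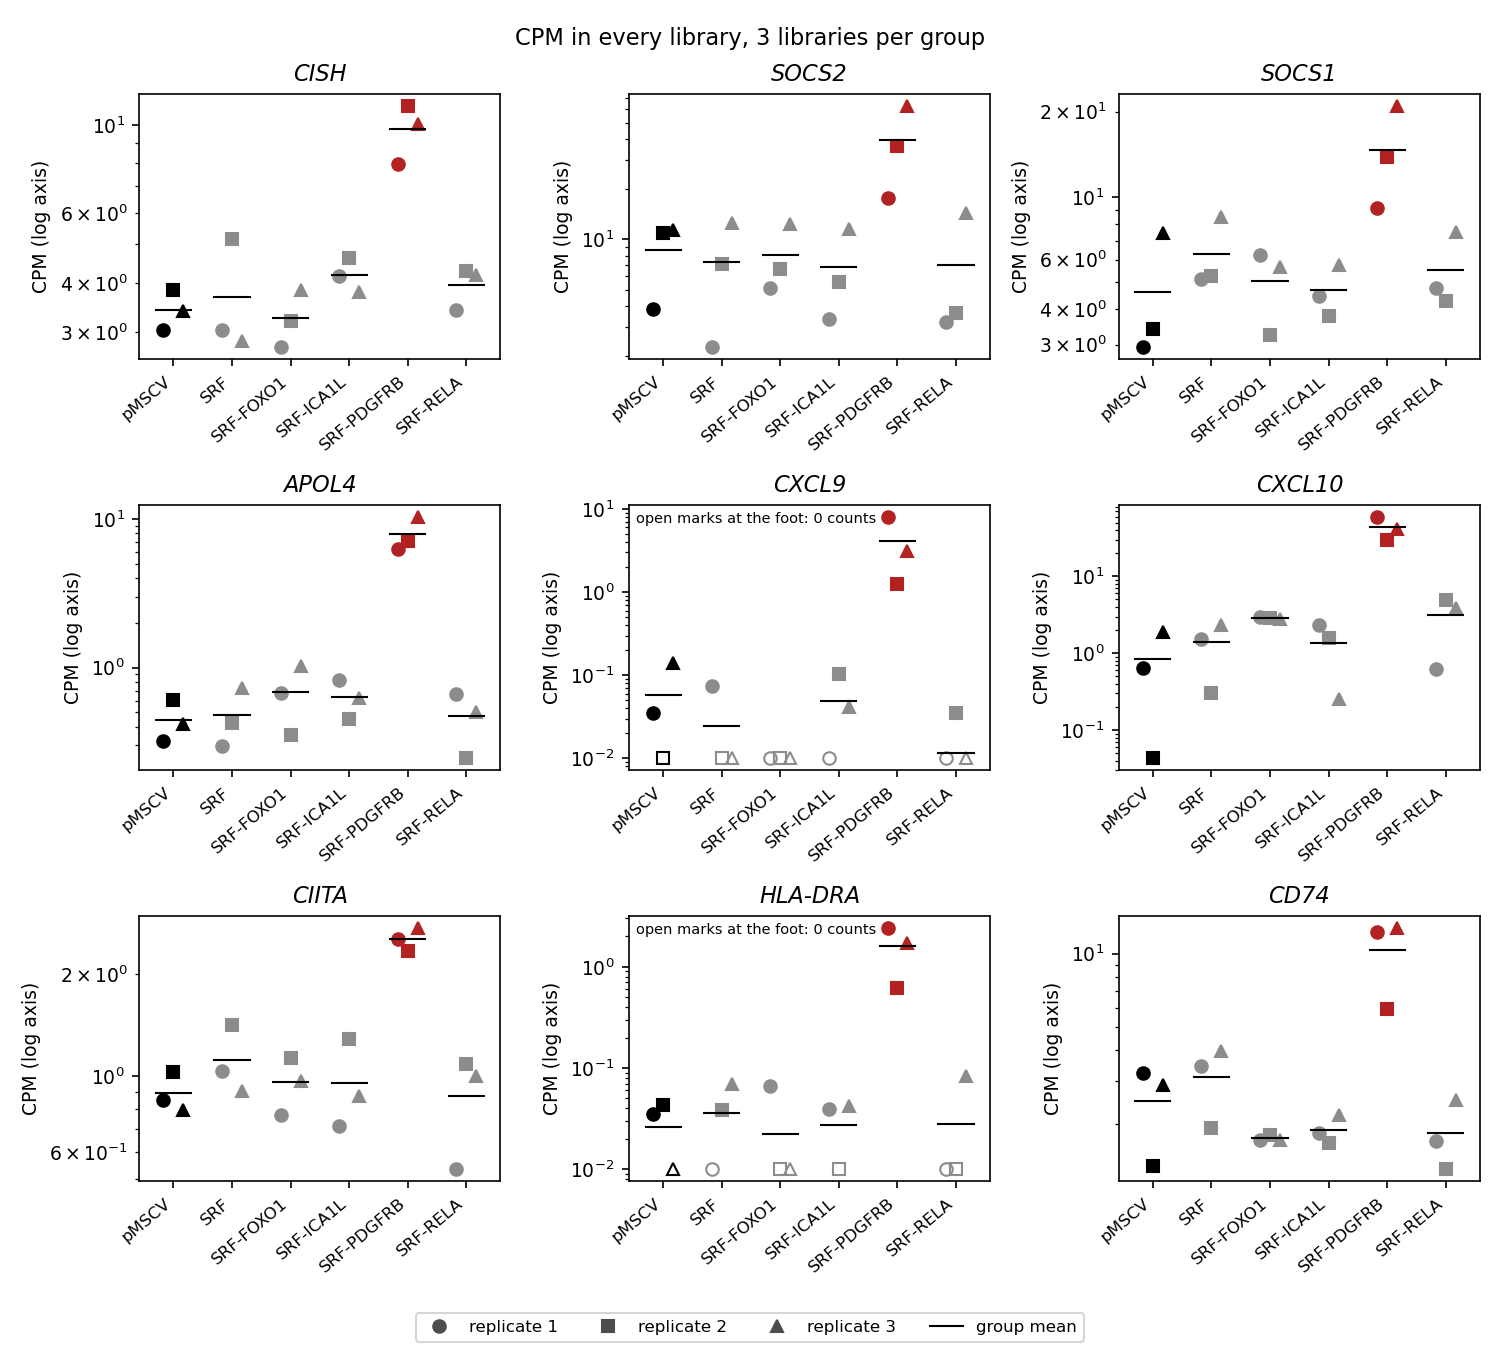
CPM of 9 genes (log axis) in each of the 18 libraries, 3 per group; the mark shape gives the replicate number, the bar the group mean, and open marks at the foot stand for 0 counts. SRF-PDGFRB libraries (red) lie above all libraries of every other group for each gene, with the smallest gaps for SOCS1 and SOCS2.

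The MHC class II pathway held calls at its regulator and at its products. HLA-DRA was called in both fits, and CD74, CIITA and HLA-DPA1 with the block. So 1 and 4 of 10 tested members were called, all higher, where 0.0324% and 0.178% of all tested genes were called. The 10 had a median log2 fold change of 1.05, against 0.00 for all genes. HLA-DRA passed the count filter only through its SRF-PDGFRB libraries, so its place among the 10 is not separate from its rise. With at least 10 counts required in every library, edgeR without the block called only SRF. That filter removed APOL4, HLA-DRA, CXCL9 and XIRP1 from testing, and CISH was tested but not called. For 6 of the 10 the groups did not overlap (5.12% of all tested genes in that direction), and 8 were higher in 3 of 3 pairs (16.3% of all tested genes). CIITA (chr16:10866222-10943021), the transactivator on which MHC class II transcription depends, was at 0.850, 1.03 and 0.796 CPM in pMSCV and 2.54, 2.33 and 2.74 CPM in SRF-PDGFRB. The 3 libraries of each group were close together and the groups well apart (log2 fold change 1.52 ± 0.25 with the block, edgeR adjusted p = 0.0167, and 0.228 without it). HLA-DRA (chr6:32439842-32445046), the invariant alpha chain of HLA-DR, had 1, 1 and 0 counts in pMSCV and 70, 18 and 33 counts in SRF-PDGFRB. It was nearly absent from pMSCV and low but present in all 3 SRF-PDGFRB libraries, least in replicate 2. The pooled counts differed by 63.0-fold (95% exact interval 17.1 to 526, which covers counting error only); the fitted log2 fold change was 5.72 ± 0.89 (edgeR adjusted p = 0.0379, and 0.00280 with the block). CD74 (chr5:150401637-150412929), the invariant chain that escorts class II molecules, was at 3.22, 1.33 and 2.87 CPM in pMSCV and 12.3, 5.94 and 12.8 CPM in SRF-PDGFRB, again lowest in replicate 2 of each group and without overlap (log2 fold change 2.04 ± 0.25 with the block, edgeR adjusted p = 0.00176, and 0.0733 without it).

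HLA-DPA1, an alpha chain of HLA-DP, was at 0.354, 0.258 and 0.519 CPM and 2.86, 0.995 and 3.20 CPM (log2 fold change 2.57 ± 0.47 with the block, edgeR adjusted p = 0.0378). Its partner HLA-DPB1 had a log2 fold change of 1.36 ± 0.63 and CTSS, the protease that trims the invariant chain, of 0.74 ± 0.34; neither was called. RFX5, RFXANK and RFXAP, the DNA-binding factors to which CIITA docks, had log2 fold changes of 0.11, -0.02 and -0.11. The 7 members with too few counts to be tested all had more counts in SRF-PDGFRB, some by very few. Pooled counts in SRF-PDGFRB against pMSCV were 1 against 0 for HLA-DQA1, 3 against 2 for HLA-DOB, 4 against 2 for HLA-DMB and 7 against 0 for HLA-DOA. HLA-DRB1 had 0, 0 and 2 counts in pMSCV and 26, 5 and 7 in SRF-PDGFRB, HLA-DRB5 22 pooled counts against 0, and HLA-DQB1 15 against 0, both without a count in SRF-PDGFRB replicate 2. HLA genes resemble one another, so reads could have been assigned to the wrong member. MHC class I and antigen processing genes, also interferon targets, had a median log2 fold change of 0.10, and of 17 tested none was called by either tool (1 at an unadjusted p under 0.05 in edgeR, TAP1). HLA-B and B2M had log2 fold changes of 0.04 and -0.11.

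**Figure D3:**
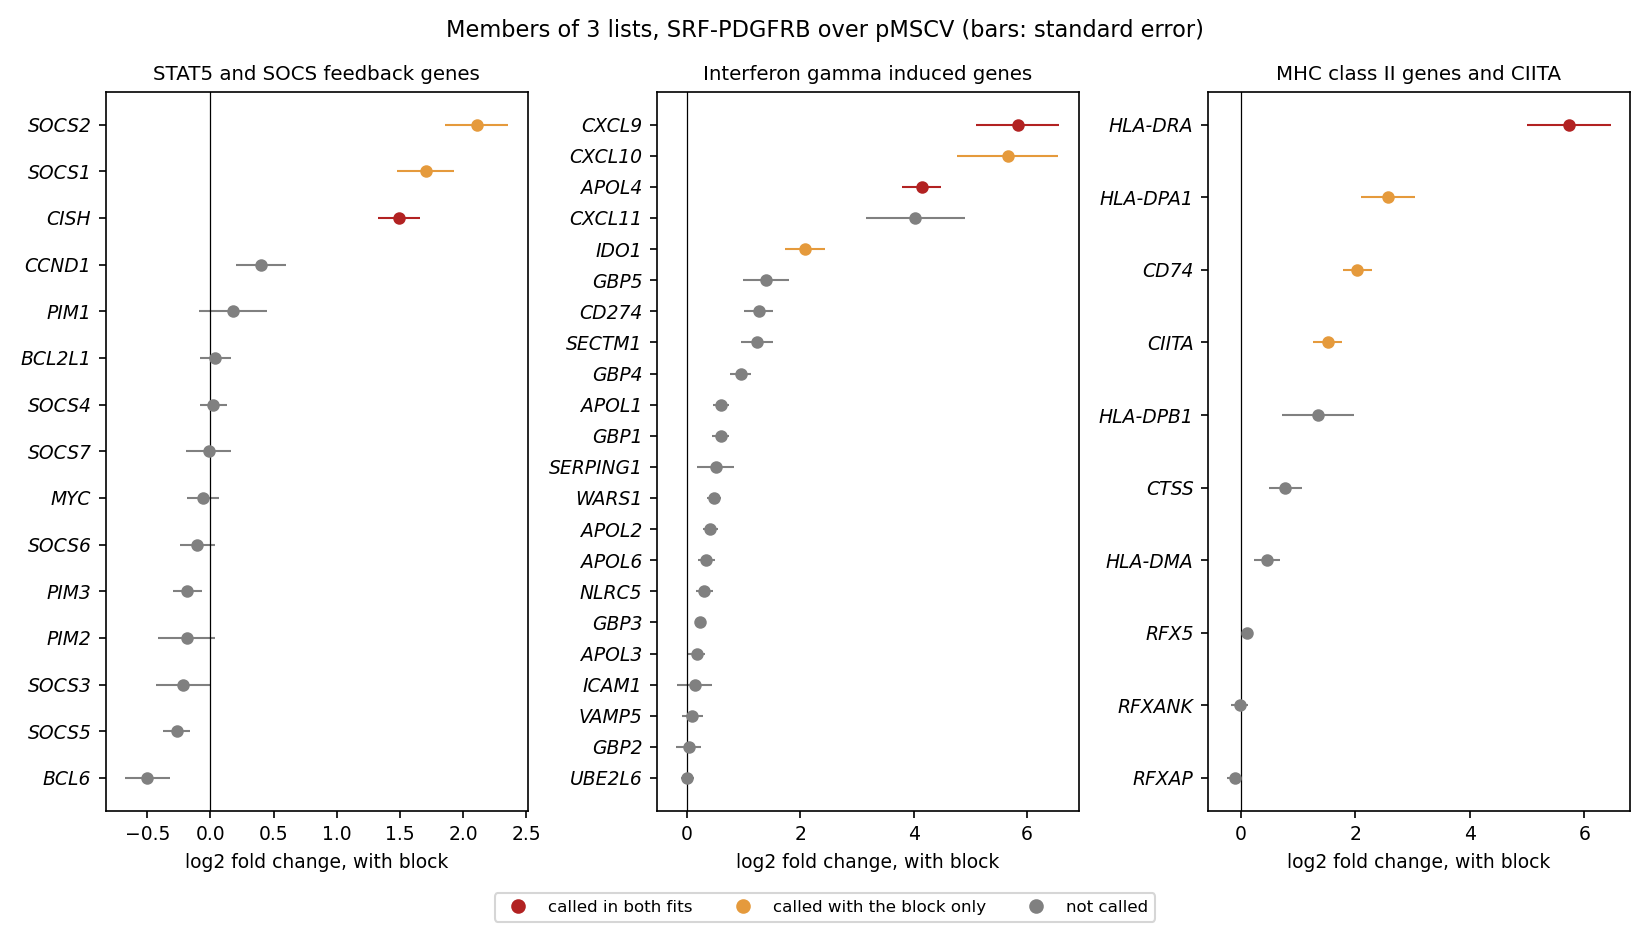
Log2 fold change of SRF-PDGFRB over pMSCV with the replicate block (points, bars are 1 SE) for the tested members of 3 lists: 15 STAT5 and SOCS feedback genes, 22 interferon gamma induced genes and 10 MHC class II genes. In the first list 3 genes stand apart from a row of members near 0, while in the second all 22 members lie above 0 with 4 called.

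Few targets of SRF itself were called. XIRP1 (chr3:39183210-39192596), an actin-binding protein of striated muscle, was one, with 1, 0 and 0 counts in pMSCV and 15.8, 2.16 and 3.41 CPM in SRF-PDGFRB. It was essentially off in pMSCV and on in all 3 SRF-PDGFRB libraries, with replicate 1 several times above the others. The pooled counts were 584 against 1, a ratio of 608-fold (95% exact interval 109 to 24055, which covers counting error only), and the fitted log2 fold change was 8.69 ± 1.39 (edgeR adjusted p = 0.0479, and 0.0137 with the block). No other of the 11 tested striated muscle genes was called (median log2 fold change 0.46, unchanged with ACTC1, which had no count in pMSCV, at its bound). MYOD1, MYOG and MYF5 had no count in either group. Of 25 cytoskeletal SRF targets SRF alone was called, with a median of 0.11. SRF counts include reads of the construct, so this call says nothing about SRF as a target. Of the 20 called genes in the promoter table SRF was also the only one with a CArG box before a start site. The motif is in 1.16% of promoters, a share per window and not per gene. The groups did not overlap in the higher direction for 8 of the 25, SRF among them (5.12% of all tested genes did so). ACTN1, an actin crosslinker, was at 329, 359 and 329.7 CPM and 484, 471 and 476 CPM, yet not called (log2 fold change 0.49 ± 0.26, edgeR adjusted p = 1). FHL1 was lower without overlap (71.1, 69.7 and 79.6 CPM in pMSCV and 59.6, 49.1 and 60.2 CPM in SRF-PDGFRB, edgeR adjusted p = 1).

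Of 18 smooth muscle genes edgeR called none in either fit (2 and 7 at an unadjusted p under 0.05, all higher), and DESeq2 called none without the block and CNN1 and MYOCD with it. All 18 log2 fold changes were above 0, with a median of 0.31, and 13 genes were higher in 3 of 3 pairs; of all tested genes 50.9% lay above 0 and 16.3% were higher in 3 of 3 pairs. ACTG2, the enteric smooth muscle actin, was at 1.52, 7.61 and 11.4 CPM in pMSCV and 11.1, 24.4 and 30.7 CPM in SRF-PDGFRB (log2 fold change 1.69 ± 0.75, edgeR adjusted p = 1). ACTA2, the vascular one, was at 15.4, 15.2 and 21.5 CPM and 17.3, 31.4 and 29.9 CPM, and CNN1, which binds actin in contractile cells, at 4.21, 15.5 and 9.04 CPM and 10.2, 26.2 and 24.1 CPM. In all 3 genes the groups overlapped, and each was higher in 3 of 3 pairs. Actin genes resemble each other, and reads could have been split between them. MYOCD, the myocardin cofactor of SRF, was at 0.106, 0.946 and 1.28 CPM in pMSCV and 1.25, 14.0 and 3.82 CPM in SRF-PDGFRB. It was higher in every pair and highest in SRF-PDGFRB replicate 2 (log2 fold change 2.63 ± 0.55 with the block, edgeR adjusted p = 0.0871, and 1 without it). The cofactors MRTFA and MRTFB had log2 fold changes of -0.04 and 0.01.

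Growth factor response genes held no call by edgeR. Of 25 immediate early genes edgeR called none in either fit (0 at an unadjusted p under 0.05 without the block, 2 higher and 6 lower with it), DESeq2 called none without the block and EGR3 and ZFP36, both lower, with it, and the median log2 fold change was -0.19. FOS was at 832, 13.6 and 622 CPM in pMSCV and 449, 21.2 and 381 CPM in SRF-PDGFRB, and EGR1 at 845, 63.7 and 541 CPM and 597, 67.3 and 392 CPM. Replicate 2 was far below replicates 1 and 3 in both groups, and this spread within a group exceeded the difference between groups. Of 19 ERK pathway output genes none was called by either tool (1 at an unadjusted p under 0.05, HBEGF, higher); the median was 0.05. DUSP6, an ERK phosphatase, was at 201, 130.2 and 251 CPM and 222, 189 and 263 CPM, and SPRY4, a feedback inhibitor, had a log2 fold change of 0.09 ± 0.37.

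Proliferation, sterol and matrix genes were likewise not called. The 26 cell cycle genes all had log2 fold changes above 0 (median 0.24), but the groups overlapped for each of them, and 1 was higher in 3 of 3 pairs (16.3% of all tested genes were). MKI67, a proliferation marker, was at 57.6, 105 and 151 CPM in pMSCV and 109, 102 and 194 CPM in SRF-PDGFRB. The 18 cholesterol synthesis genes also all lay above 0 (median 0.32), again with overlap throughout. HMGCS1, an early enzyme of the pathway, was at 38.7, 268 and 168 CPM and 66.5, 257 and 288 CPM, low in replicate 1 of both groups. Collagen and matrix genes (24, median 0.01) and NF-kB targets (20, median 0.10) were spread on both sides of 0. In these 4 lists neither edgeR nor DESeq2 made a call, and without the block edgeR gave no unadjusted p under 0.05. Over the 18 lists together 6 distinct genes were called without the block and 13 with it. Without pMSCV replicate 1, 2 or 3 the first count was 2 each time, and without SRF-PDGFRB replicate 1, 2 or 3 it was 3, 7 and 2.

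**Figure D4:**
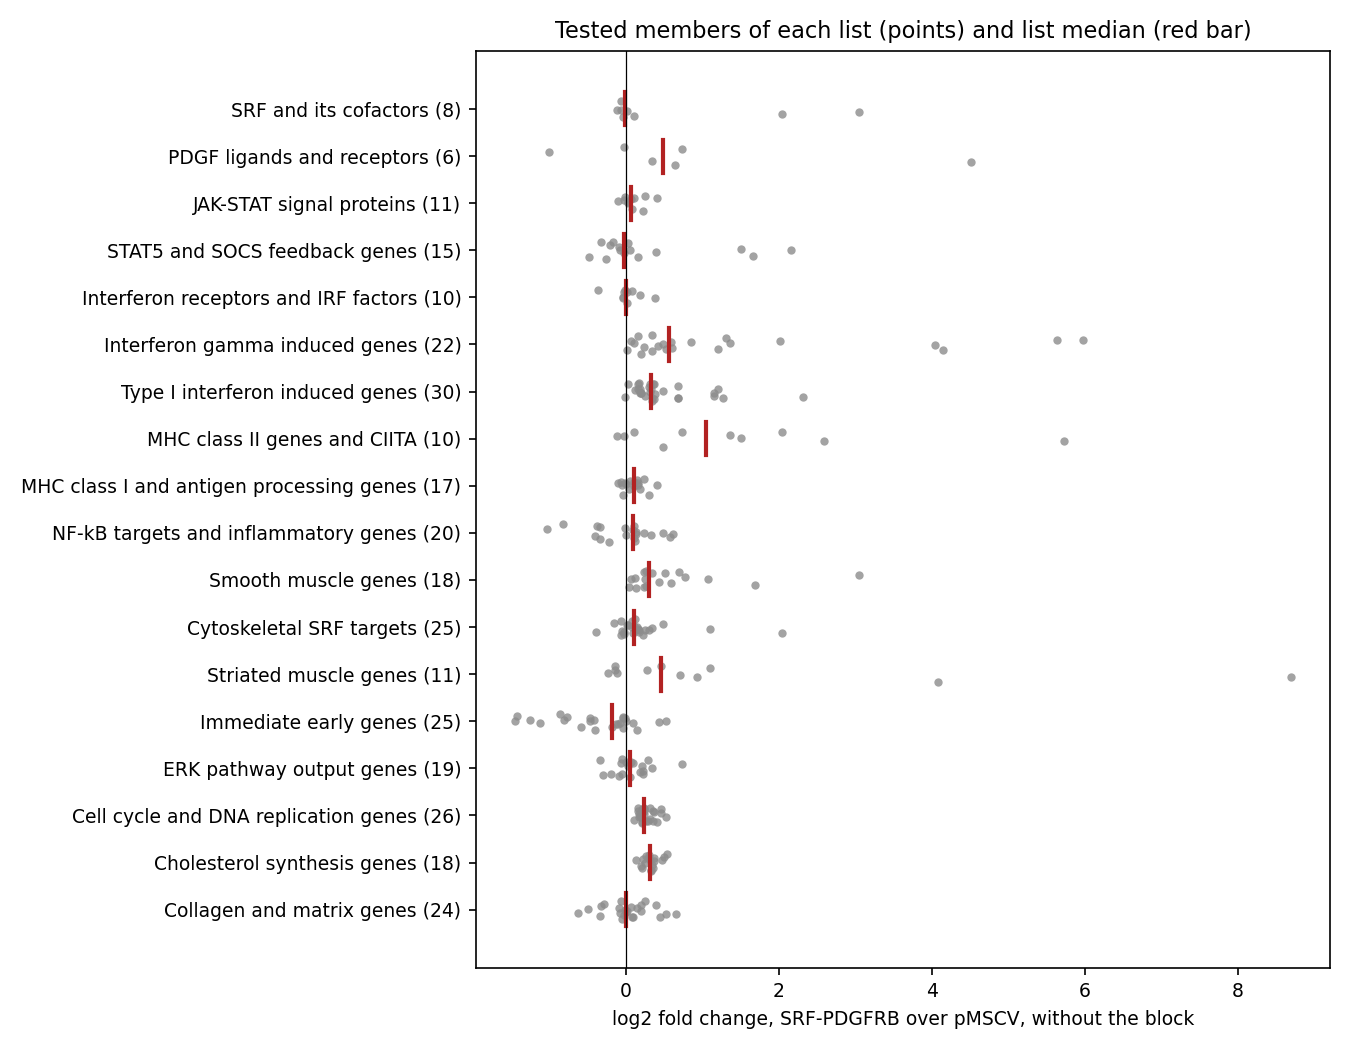
Log2 fold change of SRF-PDGFRB over pMSCV, without the block, for each tested member (grey points) of the 18 pathway lists, with the number tested in brackets and the list median as a red bar. The medians of the MHC class II (1.05) and interferon gamma (0.56) lists lie farthest from 0, and immediate early genes have the lowest median (-0.19). HLA-DRA of the first list and CXCL9 of the second passed the count filter only through SRF-PDGFRB libraries, which raises these 2 medians.

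Outside the lists edgeR, fitted to all 18 libraries with the count filter, called genes with the block only. Without the filter it also called ALOX5AP and CEACAM1 without the block, and DESeq2 without the block called these, GALNT6 and ROS1 among the genes described here. Among the higher ones, ALOX5AP, which activates 5-lipoxygenase in leukotriene synthesis, was at 1.24, 1.81 and 2.22 CPM in pMSCV and 7.14, 6.04 and 12.1 CPM in SRF-PDGFRB (log2 fold change 2.23 ± 0.33, edgeR adjusted p = 0.00759, and 0.0733 without the block). LAMP3, a lysosomal membrane protein of mature dendritic cells, was at 0.0354, 0.0430 and 0.208 CPM and 0.627, 2.51 and 1.76 CPM, and CEACAM1, a cell adhesion molecule, at 0.0708, 0.129 and 0.0693 CPM and 1.74, 0.755 and 2.38 CPM. In all 3 genes the groups did not overlap. ROS1, a receptor tyrosine kinase, was at 2.27, 4.94 and 5.40 CPM in pMSCV and 13.1, 15.6 and 28.5 CPM in SRF-PDGFRB (log2 fold change 2.24 ± 0.37, edgeR adjusted p = 0.0215). CES1, a carboxylesterase with near-identical copies, was at 0.0354, 0.817 and 0.762 CPM and 0.279, 5.90 and 7.85 CPM. Replicate 1 was the low library of both groups, and its SRF-PDGFRB value lay below the other pMSCV values (log2 fold change 3.04 ± 0.39, edgeR adjusted p = 0.00280, and 1 without the block). SORBS2, an adaptor of stress fibres and Z-discs, was at 38.2, 64.4 and 49.1 CPM in pMSCV and 62.7, 108 and 106 CPM in SRF-PDGFRB, with replicate 1 the lowest of each group and overlap between the groups (edgeR adjusted p = 0.00729 with the block). In SORBS2 as in CES1 every pair was higher. The other higher genes were GALNT6, an enzyme of O-glycosylation (log2 fold change 0.74), RHBDF2, a partner of the protease ADAM17 (0.62), CMKLR1, the chemerin receptor (2.12), and ST8SIA6, a sialyltransferase named after its values were seen (2.92).

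The 9 genes called lower with the block had log2 fold changes from -0.63 to -2.28. MATN2, a matrilin of the extracellular matrix, was at 24.1, 26.5 and 14.2 CPM in pMSCV and 7.14, 8.41 and 6.35 CPM in SRF-PDGFRB, with no overlap (log2 fold change -1.53 ± 0.26, edgeR adjusted p = 0.0225). HTRA1, a secreted serine protease, was at 151, 152 and 94.8 CPM and 97.8, 103 and 58.6 CPM. Replicate 3 was low in both groups, and the groups overlapped, while HTRA1 was lower in 3 of 3 pairs (log2 fold change -0.63 ± 0.10, edgeR adjusted p = 0.0119, and 1 without the block). ARHGAP20, a GTPase-activating protein, was at 13.9, 3.14 and 3.81 CPM in pMSCV and 4.98, 0.275 and 0.620 CPM in SRF-PDGFRB, with replicate 1 the highest of each group (log2 fold change -2.24 ± 0.33, edgeR adjusted p = 0.00729). VAV3, a guanine nucleotide exchange factor, was at 2.16, 0.473 and 1.42 CPM and 0.487, 0.103 and 0.258 CPM, and ARHGEF3, another, at 34.1, 17.4 and 21.5 CPM and 20.7, 9.13 and 9.92 CPM (log2 fold changes -2.28 and -0.93 with the block). GEM, a small GTPase that binds calcium channels, was at 91.1, 13.8 and 25.7 CPM in pMSCV and 47.3, 9.95 and 9.40 CPM in SRF-PDGFRB, with replicate 1 the highest of each group (log2 fold change -0.98 with the block). DOK5, a docking protein of receptor tyrosine kinases, was at 4.04, 2.54 and 1.42 CPM and 0.975, 1.17 and 0.362 CPM (-1.65). SLC7A8, which carries neutral amino acids, was at 22.3, 3.05 and 3.15 CPM and 9.85, 1.61 and 1.39 CPM (-1.11), and TENT5A, a poly(A) polymerase, at 90.4, 47.0 and 59.6 CPM and 64.6, 28.8 and 27.2 CPM (-0.78). Each of these 6 genes was lower in 3 of 3 pairs, as were 16.2% of all tested genes, but the blocked fit that picked them uses these pairs. Without the block neither GEM nor SLC7A8 was called, and leaving out 1 library gave -2.18 to 0.19 for GEM and -2.66 to 0.49 for SLC7A8, the positive values without pMSCV replicate 1.

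**Figure D5:**
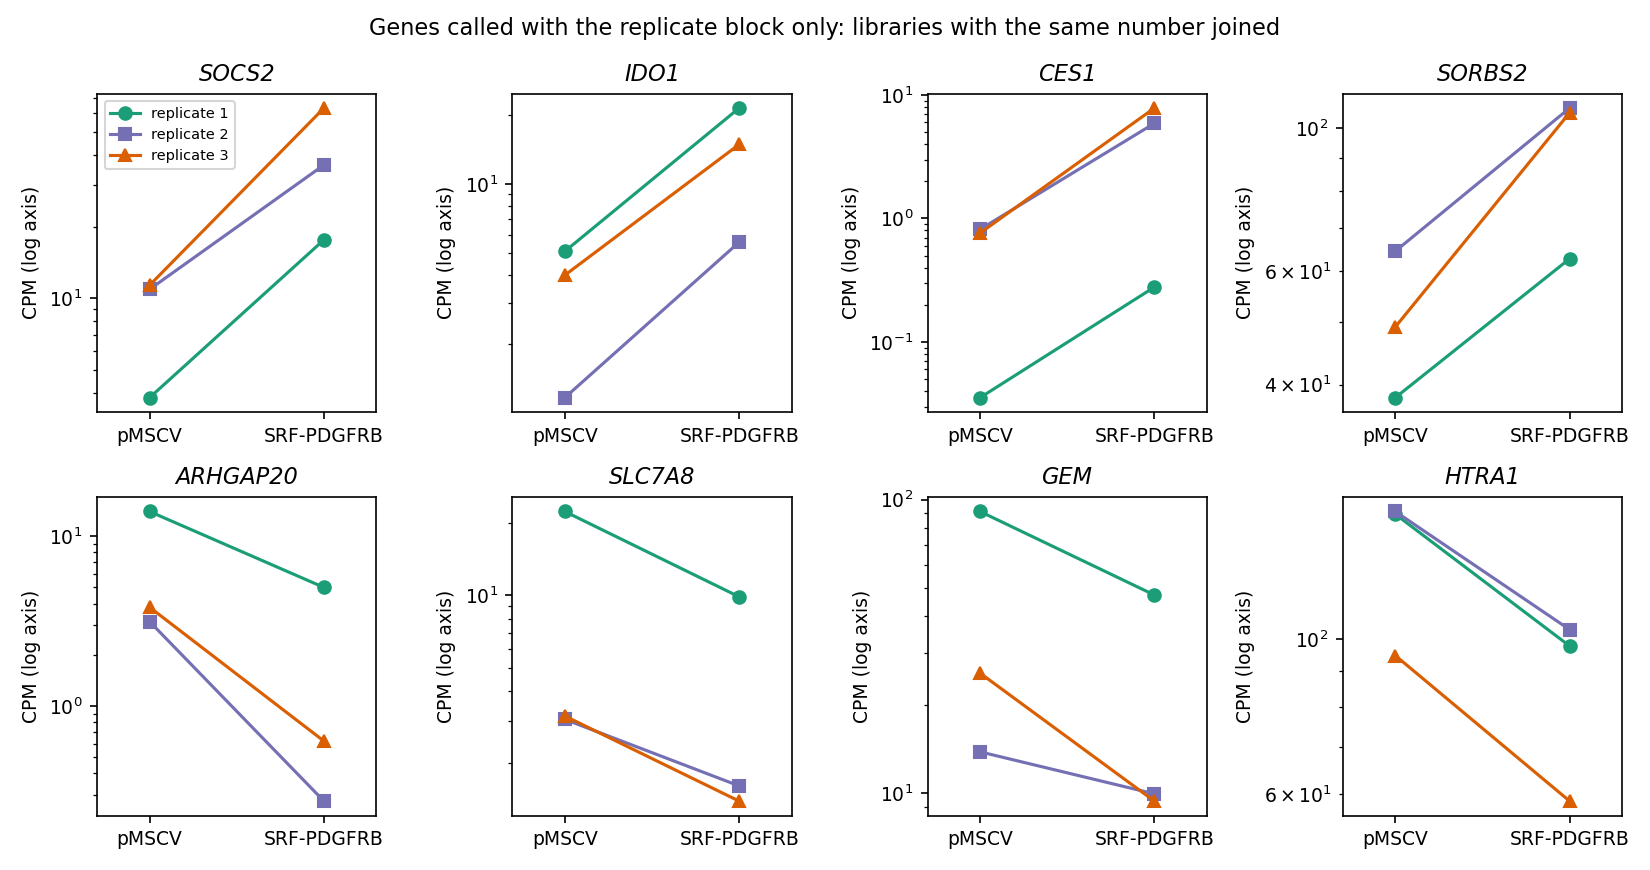
CPM (log axis) of 8 genes called only with the replicate block, in pMSCV (left of each panel) and SRF-PDGFRB (right), with lines joining libraries of the same number. All 3 lines of a panel run the same way, upward for the top row and downward for the bottom row, while their starting levels differ several-fold in CES1, ARHGAP20, SLC7A8 and GEM. The genes were picked by the blocked fit to these libraries, so the shared direction is no separate evidence.

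These genes were then set against SRF and the other 3 fusions, with the same test. Of the 6 genes called without the block, 4 were called higher than in all 4 other groups as well (0.0216% of genes tested): APOL4, CISH, HLA-DRA and CXCL9. With the block 16 were (0.0863%), all higher, and none of the 9 lower genes was. The 16 were these 4, XIRP1, SOCS1, SOCS2, SOCS2-AS1, CIITA, CD74, HLA-DPA1, IDO1, ALOX5AP, LAMP3, CEACAM1 and SORBS2. Without pMSCV replicate 1, 2 or 3 the first count was 1 each time, APOL4 being called in each; without SRF-PDGFRB replicate 1, 2 or 3 it was 1, 6 and 1. Of the 16, HLA-DRA, CXCL9 and CEACAM1 passed the count filter only through their SRF-PDGFRB libraries. CEACAM1 was at 0.235 CPM or less in every library of the other groups. For these genes, being higher than the other groups is not separate from the filter. CISH averaged 9.75 ± 1.63 CPM (SD, n = 3) in SRF-PDGFRB and 3.27 to 4.19 CPM in the other 4 groups (edgeR adjusted p from 0.00816 to 0.0374). APOL4 averaged 7.94 ± 2.15 CPM against 0.471 to 0.680 CPM, HLA-DRA 1.59 ± 0.915 CPM against 0.0224 to 0.0359 CPM, and CXCL9 4.15 ± 3.56 CPM against 0 to 0.0486 CPM. In pMSCV the same 4 genes averaged 3.42, 0.445, 0.0261 and 0.0580 CPM. SOCS2 averaged 39.1 ± 22.9 CPM against 6.80 to 8.06 CPM, and CD74 10.3 ± 3.82 CPM against 1.74 to 3.12 CPM, both called with the block.

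CMKLR1 and the smooth muscle actins differed in the other direction. CMKLR1 averaged 2.13 ± 0.666 CPM in SRF-PDGFRB, 0.707 CPM in SRF, and 81.1, 71.1 and 74.0 CPM in SRF-FOXO1, in SRF-ICA1L and in SRF-RELA. It was called lower than in each of the last 3 (log2 differences -5.39, -5.22 and -5.22; edgeR adjusted p = 0.00224, 0.00102 and 0.00185), where 133, 152 and 30 genes were called in all (0.717%, 0.82% and 0.162%). ACTG2 averaged 22.1 ± 10.0 CPM in SRF-PDGFRB and 491, 192 and 245 CPM in those fusions. It was called lower than in SRF-FOXO1 (edgeR adjusted p = 0.0199) and, with the block, than in all 3, where 806, 883 and 157 genes were called (4.35%, 4.76% and 0.847%; adjusted p = 0.000848, 0.00441 and 0.00770). ACTA2 averaged 26.2 ± 7.75 CPM and 184, 90.5 and 81.7 CPM, called lower than in SRF-FOXO1 without the block (edgeR adjusted p = 0.0361) and than in SRF-FOXO1 and SRF-ICA1L with it (adjusted p = 0.00669 and 0.0333; against SRF-RELA 0.194). SRF counts in SRF-PDGFRB were below those of cells carrying SRF itself (945 CPM, log2 difference -1.94, edgeR adjusted p = 0.00319; 27 genes, 0.146%, were called in that comparison, and 434, 2.34%, with the block). They were not called different in either fit from those of the other 3 fusions, which averaged 182, 275 and 326 CPM against 253 CPM.

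The pattern of HLA-DRA over the 18 libraries was shared most closely, among tested genes outside its list, by APOL4 (Pearson r = 0.921), CXCL9 (0.916), ALOX5AP (0.908), LYPD6 (0.901) and CEACAM1 (0.880). These values describe log2 CPM in libraries that share groups and scaling, and carry no test. HLA-DRA, like CXCL9 and CEACAM1, passed the count filter only through its SRF-PDGFRB libraries. A high correlation with it therefore largely restates a rise in that group. LYPD6, a membrane protein of the Ly6 family, was at 0.0708, 0.215 and 0.0693 CPM in pMSCV and 1.04, 0.618 and 2.27 CPM in SRF-PDGFRB, and was not called (log2 fold change 3.35 ± 0.66 with the block, edgeR adjusted p = 0.0585).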

How the data were processed

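RNA-seq was measured in 18 libraries of MSC-hTERT cells, 3 in each of 6 groups, from total RNA with a TruSeq Stranded mRNA kit, per the labels. The authors deposited 1 table of raw read counts per gene; the submitters' processing notes name FastQC 0.11.8, Trimmomatic 0.39, HISAT2, featureCounts, Subread 2.0.3 and GRCh38, and the annotation release and strand setting are not given in the sources used here. Groups and replicate numbers came from the labels. The 6 libraries compared held 19362319 to 29132937 counts, and low genes are correspondingly imprecise.

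Of 61487 identifiers, 18544 passed filterByExpr (minimum count 10). edgeR 4.0.16 in R 4.3.3 fitted all 18 libraries as 6 groups (TMM, robust quasi-likelihood F test, two-sided, Benjamini-Hochberg over all tested genes, called under 0.05), with and without the replicate number as a block (10 and 12 residual degrees of freedom). Standard errors are the log2 fold change over the root of F. CPM are counts per 1000000 of the library total, without TMM; correlations used log2 CPM with a prior count of 2. Both fits were tested on simulated counts in which only well-counted genes were changed. That check does not cover genes with as few counts as HLA-DRA, CXCL9 or XIRP1.

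The numbers were taken to pair the libraries because the correlation across genes of the deviations from the group means was 0.487, 0.223 and 0.342 for pMSCV and SRF-PDGFRB libraries numbered 1, 2 and 3, against -0.362 to 0.0398 for different numbers. The labels do not say what a number marks. Alternatives were DESeq2 1.42.0, other scalings, filters and sets of libraries.

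Named were SRF, PDGFRB, the called genes (at most 20 higher with the block), the called members of each list, its member with the lowest p in each direction, a set of pathway genes and the 5 genes most like HLA-DRA; other list members were chosen after their values were seen. Members and lists were chosen with earlier results of these data known. Symbols were matched for 61369 of the identifiers in the gene name table and for 105 more in GENCODE 29, and 13 had none; gene positions are those of GENCODE 29 on GRCh38. Promoter windows are from RefSeq (GRCh38.p14). Values of a few list members are not reported here.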

Additional observations from a re-analysis of the deposited data

How the results depend on the processing

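Without the replicate block edgeR called 6 genes. The count was 33 with the replicate block, 20 with DESeq2, 106 with DESeq2 and the replicate block, 1 with at least 10 counts in every library, 2 with the 6 libraries of both groups alone and 41 with these and the replicate block. APOL4 was the only one of the 6 genes called with those 6 libraries and no block. With at least 10 counts in every library, APOL4, HLA-DRA, CXCL9 and XIRP1 were not tested, and CISH was tested but not called. Other scalings, no count filter and a minimum fold gave 6 to 8. Without the count filter CXCL9 and XIRP1 were not among the 8 called. The minimum was a log2 fold change of 1, which all 6 calls already exceeded, so it could remove none. Leaving out 1 library gave 2 to 8, and the replicate block without the libraries numbered 2 or 3 gave 39 and 0 (in the latter 620 of 18688 at an unadjusted p under 0.05 in edgeR). Members of the lists called went from 6 to 13 with the replicate block and from 2 to 7 with 1 library left out. Genes called against pMSCV and the other 4 groups went from 4 to 16 with the replicate block, to 10 with DESeq2 and to between 1 and 6 with 1 library left out. SRF missed the threshold with the 6 libraries alone (log2 fold change 2.04, adjusted p = 0.306, edgeR), with these and the replicate block (1.98, 0.208), and with the replicate block without the libraries numbered 1 (1.81, 0.0583) or 3 (1.98, 0.209). PDGFRB passed it with DESeq2 and the replicate block (0.72, 0.0352). None of the 6 genes called without the block changed sign in the alternatives that tested it; of the 33 called with the block, GEM and SLC7A8 did so in the fit with no block and without pMSCV replicate 1 (0.19 and 0.49). The causes were not tested.

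Depth limits the low genes: HLA-DRA, CXCL9 and XIRP1 had 0 to 4 counts in each pMSCV library, so their fold changes are loosely bounded. Each was called in 1 of 6 fits with 1 library left out, as was CISH, with 86, 89 and 98 counts in pMSCV. APOL4, with 9, 14 and 12 counts there, was called in 6 of 6. Whether depth bore on these calls was not tested. With the replicate block, CXCL9 was not called by DESeq2 (adjusted p = 0.0971).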
